A study of Mus musculus with 6 samples.

Results

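The enzymes that break down threonine and that make and use serine, glycine and folate-bound one-carbon units were examined in mouse embryonic stem cells (mESCs) through the histone mark at their genes. The 10 genes, chosen by name, were Tdh, Gcat, Gldc, Phgdh, Psat1, Shmt1, Shmt2, Mthfd1, Mthfd2 and Mat2a, out of 21938 annotated coding genes and 27792 coding and lincRNA genes. For each gene, the H3K27ac peaks of control cells were sought within 1 kb of any annotated transcription start site (TSS), in the gene body and within 50 kb of either end of the gene. The study measured H3K27ac by chromatin immunoprecipitation and sequencing (ChIP-seq) in E14Tg2A mESCs that carry Rosa26-Cre and Oct4-IRES-Puro, a single line grown in serum-free N2B27 medium with LIF, PD0325901 and CT-99021. Cells were given DMSO as the control, 100 nM NVP-2, an inhibitor of the elongation kinase CDK9, or actinomycin D (ActD) at 1 μg/ml, named as 800 nM in the labels, which blocks transcription by binding DNA. Each of the 3 conditions was kept for 120 min and had 2 replicates, 6 samples in all, with human HEK293 chromatin as spike-in. The list analyzed here holds the 22973 peaks of control cells with both replicates pooled, and the NVP-2 and ActD libraries were not analyzed here.

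Each entry of the list is a chromosome, a start and an end in the mm10 (GRCm38) build. It carries no height, score or read count, so depth, replicate error and the strength of a peak could not be read from it, and no test was made. The authors merged peaks within 2 kb of each other, so a wide peak may join several nearby ones, and they kept only peaks near sites of open chromatin. A promoter without a listed peak may have failed a threshold or had no signal. Median peak width was 2068 bp, and peaks took up 3.29% of the genome. The labelled cell type was checked by its markers: the promoters of the pluripotency factors Pou5f1, Nanog and Sox2 were marked, 3 of 3, whereas 0 of 4 promoters of genes from other lineages (Gata1, Neurod1, Alb and Myod1) were.

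H3K27ac lies at active promoters and enhancers. One-carbon metabolism moves single carbon units, carried on folate, from serine and glycine into nucleotides and into methionine, whose activated form, S-adenosylmethionine (SAM), donates the methyl groups of histones and DNA. Mouse ESCs are known for their dependence on threonine, which their mitochondria break down to glycine and acetyl-CoA. Cytosol and mitochondria hold parallel enzymes for the folate steps, and the glycine cleavage system and threonine breakdown are mitochondrial.

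All 10 genes had a marked promoter, whereas 51.9% of coding genes did (95% Wilson interval 51.2–52.6, counting error only). Of the 10, 8 had a promoter peak wider than the median of marked coding genes. The median width of the widest promoter peak was 4668 bp over the 10 genes and 2304 bp over the 11384 marked coding genes, with quartiles of 1585.75 and 5190.75 bp. The widths were far from uniform. Tdh and Mthfd1 had peaks of more than 20 kb, 2 of 10, a width reached by 3.87% of marked coding genes, while Phgdh and Mthfd2 had the narrowest, 1559 bp and 1902 bp. The limit of 20 kb was chosen after the values were seen. The peaks lay mainly downstream of the TSS. Positions are given from the TSS of the principal isoform, the one that the annotation ranks first.

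**Figure D1:**
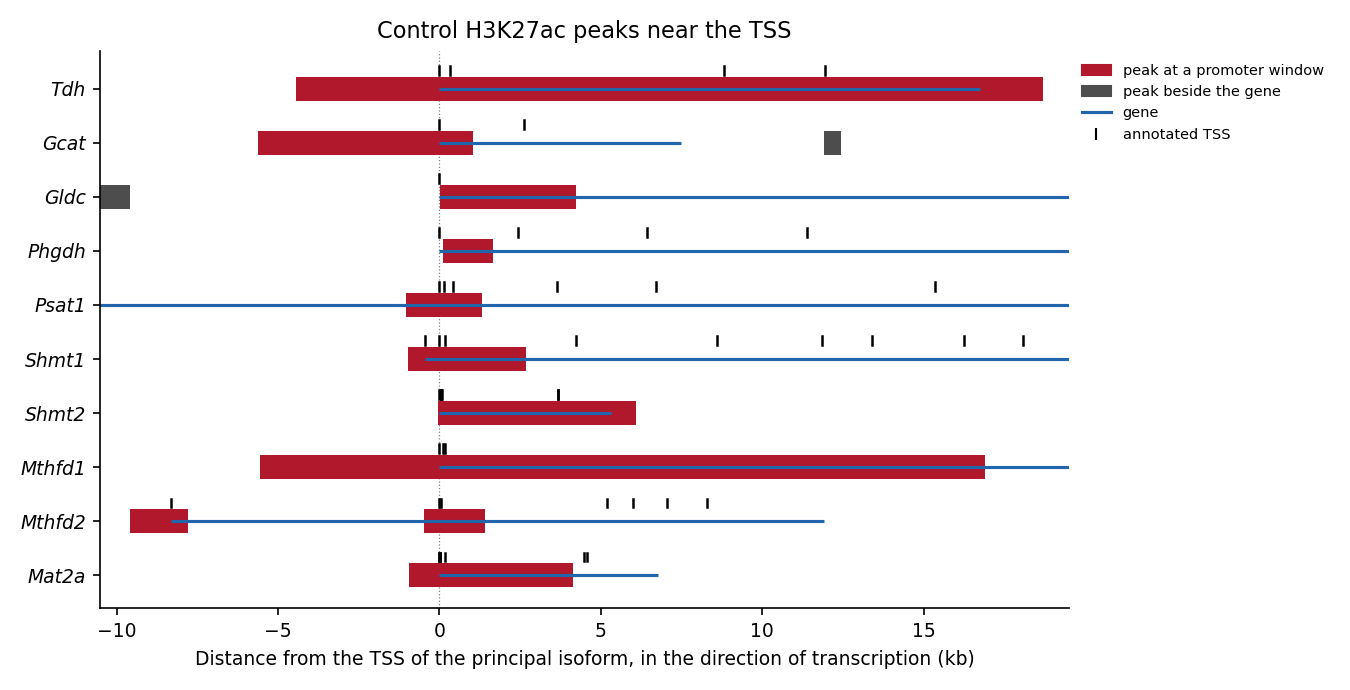
Peaks around the TSS of the 10 genes. The horizontal axis gives the distance from the TSS of the principal isoform in kb, positive downstream, red and dark boxes are peaks, blue lines genes and ticks annotated TSSs. The Tdh and Shmt2 peaks cover the whole gene, Gcat has the longer part of its peak upstream, and the Gldc and Phgdh peaks start 15 and 104 bp past the TSS.

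The genomic sequence before 6 of these start sites is shown since the peaks lie on them in different ways. Each run is the 200 bases that end just before the TSS of the principal isoform, 5′ to 3′ on the strand of the gene, from GRCm38, with matches to the motifs described further on in capitals (the CCAAT box, which reads ATTGG on the other strand, the GC box GGGCGG or CCGCCC in reverse, the TATA box TATAAA and the NRF1 part GCATGCGC or its reverse complement). The Tdh run (chr14:63509093-63509292, minus strand) lies deep inside the widest peak of the set. The Phgdh run (chr3:98339991-98340190, minus strand) lies wholly outside its peak. The Shmt2 run (chr10:127522445-127522644, minus strand) is under its peak only in the 50 bases nearest the TSS. The Psat1 (chr19:15925060-15925259) and Mthfd2 (chr6:83317607-83317806) runs, both on the minus strand, lie before start sites inside the longest annotated form of the gene. The Mat2a run (chr6:72439559-72439758, minus strand) has the most CG dinucleotides.
Tdh: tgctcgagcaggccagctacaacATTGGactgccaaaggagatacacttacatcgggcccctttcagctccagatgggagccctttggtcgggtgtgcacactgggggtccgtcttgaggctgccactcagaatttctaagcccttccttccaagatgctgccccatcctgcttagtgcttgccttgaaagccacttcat
Phgdh: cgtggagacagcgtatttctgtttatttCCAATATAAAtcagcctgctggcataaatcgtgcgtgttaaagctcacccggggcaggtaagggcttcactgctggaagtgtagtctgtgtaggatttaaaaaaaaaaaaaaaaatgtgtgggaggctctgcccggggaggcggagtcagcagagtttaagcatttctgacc
Shmt2: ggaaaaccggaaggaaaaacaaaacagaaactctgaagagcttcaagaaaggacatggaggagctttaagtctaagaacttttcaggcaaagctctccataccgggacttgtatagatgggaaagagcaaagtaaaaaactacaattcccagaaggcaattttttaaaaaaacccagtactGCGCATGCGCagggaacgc
Psat1: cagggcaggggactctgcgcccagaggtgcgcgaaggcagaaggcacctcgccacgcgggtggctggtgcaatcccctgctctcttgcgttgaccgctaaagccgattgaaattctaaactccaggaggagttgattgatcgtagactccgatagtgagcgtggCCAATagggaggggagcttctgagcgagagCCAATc
Mthfd2: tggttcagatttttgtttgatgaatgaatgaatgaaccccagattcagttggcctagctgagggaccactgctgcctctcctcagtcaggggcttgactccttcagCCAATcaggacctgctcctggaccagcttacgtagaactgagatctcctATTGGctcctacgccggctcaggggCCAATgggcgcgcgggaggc
Mat2a: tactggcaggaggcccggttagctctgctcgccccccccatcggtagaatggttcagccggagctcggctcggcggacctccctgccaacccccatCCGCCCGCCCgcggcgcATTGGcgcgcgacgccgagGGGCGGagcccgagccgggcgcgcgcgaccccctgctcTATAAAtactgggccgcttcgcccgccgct
The number of CG dinucleotides in these runs was 4 for Tdh, 7 for Phgdh, 5 for Shmt2, 13 for Psat1, 6 for Mthfd2 and 28 for Mat2a. In the runs not printed it was 12 for Mthfd1, whose peak of 22485 bp was nearly as wide as that of Tdh. It was 15 for Gcat, 7 for Gldc and 13 for Shmt1.

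Threonine breakdown starts with Tdh, the threonine dehydrogenase of mitochondria, and ends with Gcat, which splits the product of Tdh into glycine and acetyl-CoA. Tdh (ENSMUSG00000021953.14, chr14:63492347-63509092, minus strand) lay entirely under a peak of 23133 bp, chr14:63490404-63513536. It ran from 4.44 kb upstream of the TSS to 18.7 kb downstream of it, past the end of the gene. All 9 exons of the principal isoform and 4 of 4 annotated TSSs were inside. Only 2 of the 10 genes, Tdh and Shmt2, were covered over 100% of their length, and 5.17% of marked coding genes were. The Tdh peak was wider than the widest promoter peak of 96.8% of marked coding genes. With 50 kb added on either side, peaks covered 23.4% of the region, the highest share of the set and above the median of 8.43% for marked coding genes. Most of it was the Tdh peak itself, since only 2 peaks lay beside the gene. One lay 30.7 kb past the end of the gene, within Fam167a, and the other 33.8 kb upstream of the TSS, at the promoter of Mtmr9.

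Gcat (ENSMUSG00000006378.15, chr15:79030874-79038353, plus strand) had a peak of 6665 bp, chr15:79025240-79031904, that lay the other way round. It held 5.63 kb upstream of the TSS and 1.03 kb downstream, overlapped only the first of 9 exons, and covered 13.8% of the gene. Gcat was the single gene of the set with the longer part upstream: in 9 of 10 the downstream part was longer, and in 67.2% of coding genes with a peak at the principal TSS. The upstream part is shared with other genes. The same peak reached the TSS of H1f0, which encodes a linker histone, at −2.42 kb from the Gcat TSS, and that of the lincRNA Gm17753 at −5.09 kb. It cannot be told which of the 3 start sites the peak belongs to. A further annotated coding record with the symbol Gcat starts 27 bp downstream of the Gcat TSS under the same peak. Gcat also had the most peaks beside it, 5, at the promoters of Triobp, Galr3, Gm3924, Ankrd54 and Eif3l, with the nearest 11.9 kb from its TSS. The genes of both threonine enzymes thus had wide peaks at their promoters, that of Gcat shared with other start sites. Only Tdh was covered along the whole gene.

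Gldc encodes the glycine decarboxylase, the subunit of the glycine cleavage system that releases carbon dioxide from glycine. Gldc (ENSMUSG00000024827.10, chr19:30098447-30175429, minus strand) is the longest gene of the set, 77.0 kb. Its peak of 4230 bp, chr19:30171185-30175414, began 15 bp past the TSS, overlapped exons 1 and 2 of 25 and covered 5.49% of the gene. No listed peak lay in the rest of the gene. Of its 2 annotated TSSs, 1 was within 1 kb of the peak and 0 were inside. The 3 peaks beside Gldc were all intergenic, which held for no other gene of the set. Intergenic here means outside coding and lincRNA genes and their promoter windows, as genes of other types were not considered. The 3 peaks were of 405, 1673 and 2348 bp, 33.9 kb and 9.58 kb upstream and 1.16 kb past the end of the gene.

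Serine synthesis branches from glycolysis with Phgdh, the dehydrogenase of the first step, followed by the aminotransferase Psat1. Both genes had narrow peaks for this set and few listed peaks around them. Phgdh (ENSMUSG00000053398.11, chr3:98313170-98339990, minus strand) had the narrowest promoter peak, 1559 bp at chr3:98338328-98339886, which overlapped only exon 1 of 12. It started 104 bp past the TSS, so that 0 bp lay upstream. Only 24.0% of marked coding genes had a narrower peak. Phgdh was also the single gene of the set with 0 peaks beside it within 50 kb, whereas 9 of 10 had at least 1, close to the 85.8% of marked coding genes and above the 67.5% of all coding genes. With all peaks at a gene's own promoter windows left out, the nearest peak was 253.0 kb from the principal TSS of Phgdh. Such a distance or a longer one was found for 1.79% of 11380 marked coding genes, a comparison chosen after the value was seen. The median distance was 19.4 kb over the 10 genes and 19.1 kb over the marked coding genes (quartiles 9.64 and 40.3 kb).

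Psat1 (ENSMUSG00000024640.9, chr19:15904678-15947337, minus strand) was marked at the start site of its principal isoform, which lies inside the longest annotated form of the gene. RefSeq, a second annotation, gives starts at 15924622 and 15925059, both under this peak, and none farther upstream. The annotation used here gives 7 TSSs, and the peak of 2379 bp, chr19:15923730-15926108, held 3 of them, the principal one included. It ran from 1.05 kb upstream of that TSS to 1.33 kb downstream. The longest isoform, Psat1-207, starts 22.3 kb farther upstream, and no peak lay within 1 kb of that start. The nearest was 3.54 kb away, a peak of 559 bp at chr19:15943242-15943800 in intron 1 of Psat1-207. This was the only gene body peak outside a promoter window in the set, 1 of 10 genes, where 25.1% of marked coding genes and 17.4% of all coding genes had one. One peak lay beside the gene, at the promoter of Cep78. Peaks covered 6.89% of Psat1 and 5.81% of Phgdh, both below the median of 9.65% for marked coding genes. With 50 kb added on either side, they covered 2.95% at Psat1 and 1.23% at Phgdh, the lowest shares of the set.

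Serine hydroxymethyltransferases convert serine to glycine and pass the carbon to folate, Shmt1 in the cytosol and Shmt2 in mitochondria. The peak at Shmt2 was wider than that at Shmt1 and covered the gene. Shmt2 (ENSMUSG00000025403.5, chr10:127517123-127522444, minus strand) is the shortest gene of the set, 5322 bp. Its peak of 6145 bp, chr10:127516350-127522494, held all 12 exons and 7 of 7 TSSs, and ran on into the neighboring gene Ndufa4l2. Only 50 bp of it lay upstream of the TSS, against 6095 bp from the TSS onwards. At most 50 bp upstream was a feature of 3 of the 10 genes (Gldc, Phgdh and Shmt2) and of 10.6% of coding genes with a peak at the principal TSS. The limit of 50 bp was chosen after the values were seen. The 1 peak beside Shmt2 was 41.3 kb upstream, within Lrp1.

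Shmt1 (ENSMUSG00000020534.14, chr11:60788104-60811718, minus strand) had a peak of 3651 bp, chr11:60808585-60812235, with 970 bp upstream of the principal TSS and 2681 bp from it onwards. It overlapped exon 1 of 12 and covered 13.3% of the gene. Of 9 annotated TSSs, 3 were inside. The 4 peaks beside Shmt1 belonged to its neighbors Top3a, Smcr8 and Dhrs7b, with 2 at promoters and 2 within genes. The nearest was 19.0 kb from the principal TSS.

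Mthfd1 and Mthfd2 interconvert the folate-bound carbon units, Mthfd1 as the trifunctional enzyme of the cytosol and Mthfd2 as the mitochondrial enzyme that is prominent in embryonic and dividing cells. Here the cytosolic gene had the wider peak. Mthfd1 (ENSMUSG00000021048.7, chr12:76255298-76319803, plus strand) carried 22485 bp, chr12:76249728-76272212, wider than in 96.7% of marked coding genes. The peak ran from 5.57 kb upstream of the TSS to 16.9 kb downstream, and overlapped only exons 1 and 2 of 28, so that the covered part of the gene was mostly intron. It covered 26.2% of the gene and, with the peaks beside it, 23.1% of the region. Of the 4 peaks beside Mthfd1, 3 lay over Tex21 upstream and the last, 19885 bp wide, lay 46.0 kb past the end of the gene at the promoters of Zbtb25 and Zbtb1. That peak was the widest of the 26 beside the 10 genes.

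Mthfd2 (ENSMUSG00000005667.8, chr6:83305691-83325908, minus strand) had 2 promoter peaks, at separate start sites. The peak at the principal TSS was 1902 bp wide, chr6:83316182-83318083, with 477 bp upstream and 1425 bp from the TSS onwards. The other, 1817 bp wide, chr6:83325383-83327199, held the TSS of the longest isoform, Mthfd2-207, 8.3 kb farther upstream. That peak is shared, since the TSS of Mob1a, on the other strand, lies 108 bp upstream of the start of Mthfd2-207. Of the 7 annotated TSSs of Mthfd2, 3 were inside a peak, and the others start only transcripts labelled retained_intron. Peaks covered 12.0% of the gene. Mthfd2 and Psat1 were the genes of the set whose principal and longest isoforms start apart, and they differed in that the outer start was marked at Mthfd2 and unmarked at Psat1. Neither outer start is in the RefSeq entries for these genes.

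Mat2a makes SAM from methionine and ATP in most tissues outside the adult liver. Mat2a (ENSMUSG00000053907.10, chr6:72432799-72439558, minus strand) had a peak of 5106 bp, chr6:72435408-72440513, from 955 bp upstream of the TSS to 4.15 kb downstream. It overlapped exons 1 to 6 of 9 and covered 61.4% of the gene, which at 6760 bp is short. All 8 of its annotated TSSs were within 1 kb of the peak and 6 were inside. Of the 3 peaks beside Mat2a, 2 lay at the promoters of Vamp8 and Ggcx and 1 was intergenic, 12.0 kb upstream.

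**Figure D2:**
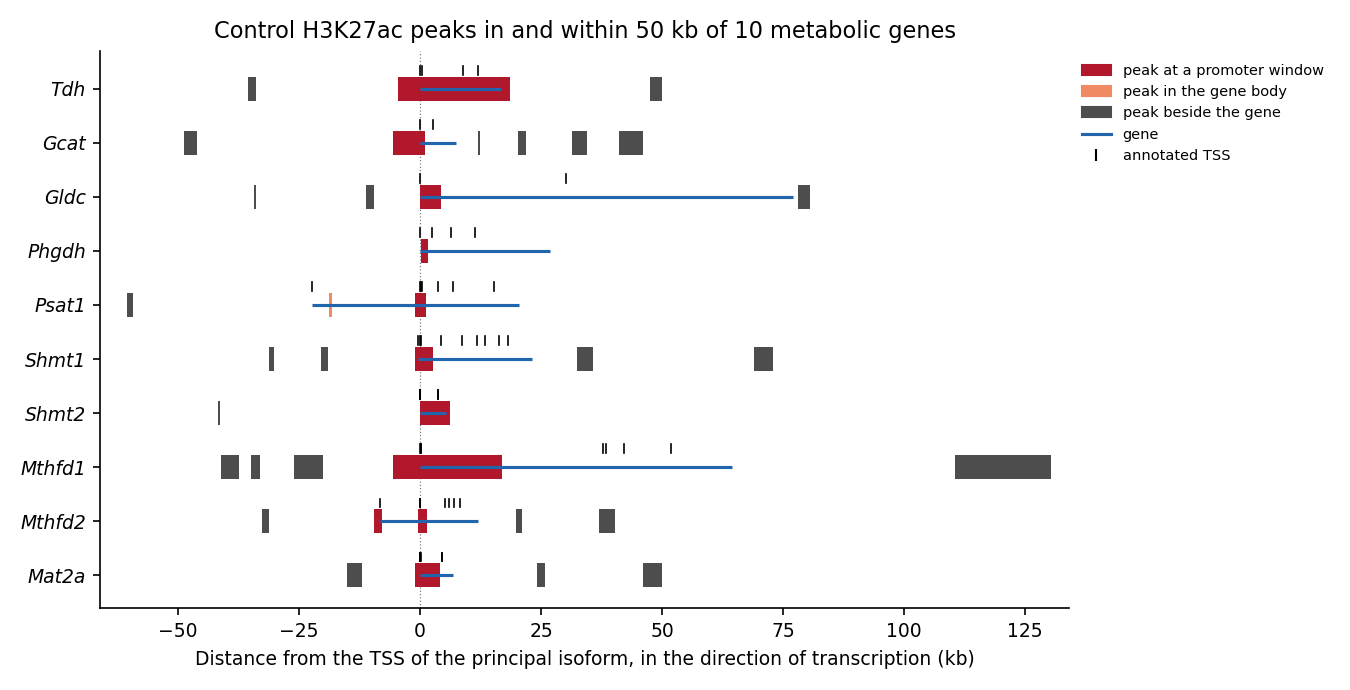
All peaks in and within 50 kb of the 10 genes, placed by distance in kb from the TSS of the principal isoform in the direction of transcription. Red boxes are peaks at a promoter window, the orange box is the gene body peak of Psat1 and dark boxes are peaks beside the gene. Phgdh has 0 dark boxes and Gcat has 5.

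In all, 57 distinct TSSs are annotated for the 64 transcripts of the 10 genes. A peak lay within 1 kb of 35 of them and 30 were inside a peak. No share over the TSSs of all coding genes is given beside these counts. Of the TSSs farther than 1 kb from a peak, only some at Gcat, Psat1, Shmt1 and Mthfd1 start a protein_coding transcript. The rest start only transcripts that the annotation labels retained_intron or processed_transcript. For the principal TSS, 8 of 10 were inside, all but those of Gldc and Phgdh, and 90.8% of coding genes with a peak at the principal TSS had it inside. The median part of the peak upstream of the principal TSS was 962.5 bp in the set and 844 bp over coding genes with a peak there. From the TSS onwards the medians were 3416 bp and 1164 bp, so the greater width of these peaks lay mainly downstream.

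The neighborhood of the genes held 26 further peaks, of 405 to 19885 bp with a median of 2167 bp. Of these, 15 lay at the promoter of another gene, 7 within another gene and 4 between genes, with only coding and lincRNA genes considered. No such split is given for peaks beside other coding genes. The median number beside a gene was 3 in the set, 2 over marked coding genes and 1 over all coding genes. The share of the region covered by peaks, the gene with 50 kb on either side, had a median of 9.4% in the set and 8.43% over marked coding genes. The 4 intergenic peaks were at Gldc and Mat2a. Whether any of the 26 peaks acts on a gene of the set was not tested.

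By compartment, the 5 mitochondrial enzymes (Tdh, Gcat, Gldc, Shmt2 and Mthfd2) had a median promoter peak of 6145 bp, with values from 1902 to 23133 bp. The 5 others (Phgdh, Psat1, Shmt1, Mthfd1 and Mat2a) had a median of 3651 bp, with values from 1559 to 22485 bp. The ranges overlap over nearly their whole length. Each compartment had 1 gene with a peak of more than 20 kb.

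**Figure D3:**
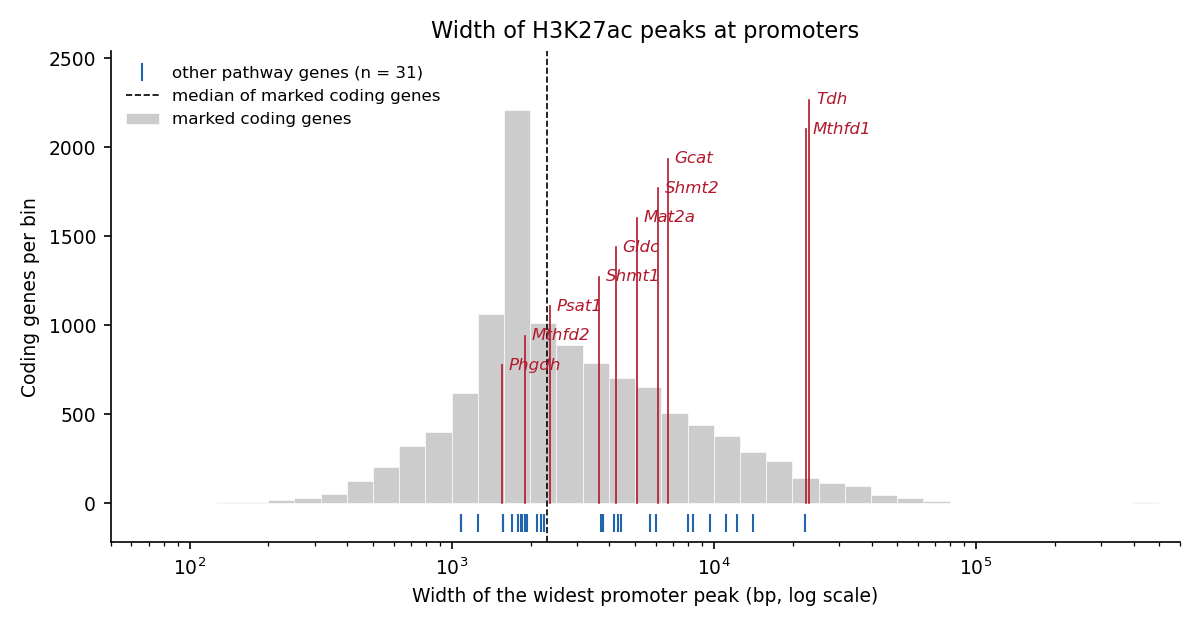
Width of the widest promoter peak in bp on a log axis. Grey bars count marked coding genes per bin, the dashed line is their median of 2304 bp, red lines are the 10 genes, whose heights only separate the names, and blue ticks are the 31 other marked genes of the pathway. Tdh and Mthfd1 stand in the right tail and 8 of the 10 lines lie to the right of the median.

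The other genes of the pathway were taken by role. Of 42 such genes, 31 were marked, 73.8% (95% Wilson interval 58.9–84.7, counting error only), again above the 51.9% of coding genes. The 42 genes are a chosen list and not a random draw, so the interval is no test of that difference. Their median promoter peak was 2256 bp, close to that of marked coding genes and narrower than the 4668 bp of the 10 genes. Where they had a peak at the principal TSS, it was longer downstream in 15 of 30, below the 67.2% of coding genes, whereas the 10 genes had 9 of 10. The widest peak was at Cth, which makes cysteine at the end of transsulfuration, with 22378 bp. Next came Pipox, an oxidase of sarcosine and pipecolate, with 14114 bp, and Ahcy, which clears S-adenosylhomocysteine after methyl transfer, with 12278 bp. The narrowest, of 1090 bp, was shared by the adjacent genes Bhmt2, a methyltransferase that makes methionine, and Dmgdh, which oxidizes dimethylglycine. Dld, a lipoamide dehydrogenase shared by several mitochondrial complexes, followed with 1259 bp.

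In serine synthesis and use, 3 of 5 genes were marked: Psph, the last enzyme of serine synthesis, Srr, the serine racemase, and Tha1, a threonine aldolase. The unmarked genes were Sds and Sdsl, the serine dehydratase and its relative, which break serine down. The other genes of glycine cleavage, Amt, Gcsh and Dld, were marked, 3 of 3, as was Gldc. In the folate cycle, 7 of 11 were marked, and the exceptions were Mthfd2l, the relative of Mthfd2, Mthfs, which returns folinic acid to the cycle, Aldh1l2, the mitochondrial formyl-folate dehydrogenase, and Ftcd, an enzyme of histidine breakdown. The Tha1 peak lay 0.662 kb from the principal TSS and covered 0.0% of the gene. Of the genes for folate uptake and retention 6 of 7 were marked, all but Ggh, which trims the glutamate tail of folates. Folr1 was marked only at another of its TSSs, since the nearest peak was 1.43 kb from the principal TSS. Its promoter peak also reached the promoter of Anapc15.

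In the methionine cycle 8 of 10 genes were marked. The exceptions were Mat1a, the liver counterpart of Mat2a, and Gnmt, a methyltransferase of glycine that is abundant in liver. Of the SAM synthetases, Mat2a was therefore marked and Mat1a was not, and the peak nearest to the Mat1a TSS was 90.0 kb away. Both genes of transsulfuration, Cbs and Cth, were marked, 2 of 2. In choline and sarcosine oxidation 2 of 4 were, Dmgdh and Pipox, whereas Chdh, the choline dehydrogenase, and Sardh, the sarcosine dehydrogenase, were not.

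The unmarked promoters differed in how far the next peak was. For Mthfd2l it was 535.0 kb from the principal TSS and for Mthfs 107.0 kb. It was 73.2 kb for Sardh, 42.8 kb for Ftcd and 28.5 kb for Chdh. Of these 5 genes, Mthfd2l, Mthfs and Sardh had 0 peaks within 50 kb, Ftcd had 1 and Chdh had 2. Mat1a, at 90.0 kb, also had 0. The distance was under 20 kb for the other 5 unmarked genes, 18.1 kb for Ggh, 17.4 kb for Sds, 16.9 kb for Gnmt, 13.7 kb for Sdsl and 9.28 kb for Aldh1l2.

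**Figure D4:**
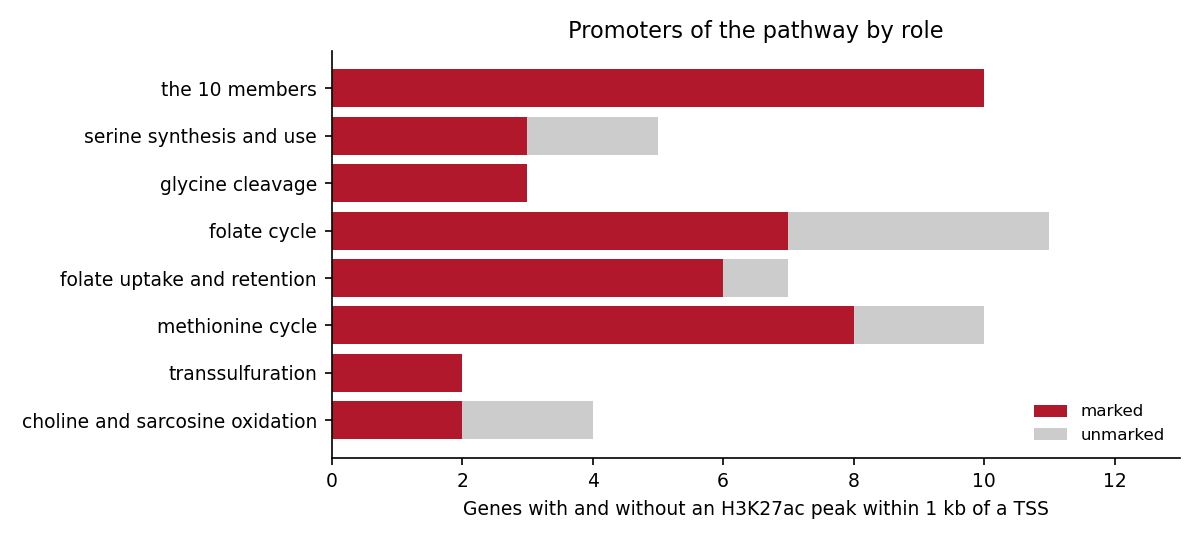
Number of genes with (red) and without (grey) a peak within 1 kb of a TSS, for the 10 genes and for the other 42 genes of the pathway by role. The bars run from 3 of 3 marked in glycine cleavage to 2 of 4 in choline and sarcosine oxidation.

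The sequence of the promoters was described by GC content and by the ratio of observed to expected CpG dinucleotides in the 1 kb on each side of the principal TSS, taken from the genome and not from the peaks. The set had a median GC content of 52.6% and a median CpG ratio of 0.526. Both lay a little below the medians of marked coding promoters, 54.0% and 0.631, and above those of unmarked ones, 47.0% and 0.224. Mat2a stood apart with 59.1% and 0.898. Tdh had the lowest CpG ratio, 0.407, at 52.5% GC, followed by Shmt2 with 0.438 at 47.8%. The remaining 7 genes had ratios from 0.486 (Gcat and Shmt1) to 0.603 (Psat1). The unmarked outer start of Psat1 had 46.3% and 0.286, against 56.5% and 0.603 at its marked internal start. The outer start of Mthfd2, which was marked, had 49.6% and 0.649, against 49.7% and 0.574 at the internal one.

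**Figure D5:**
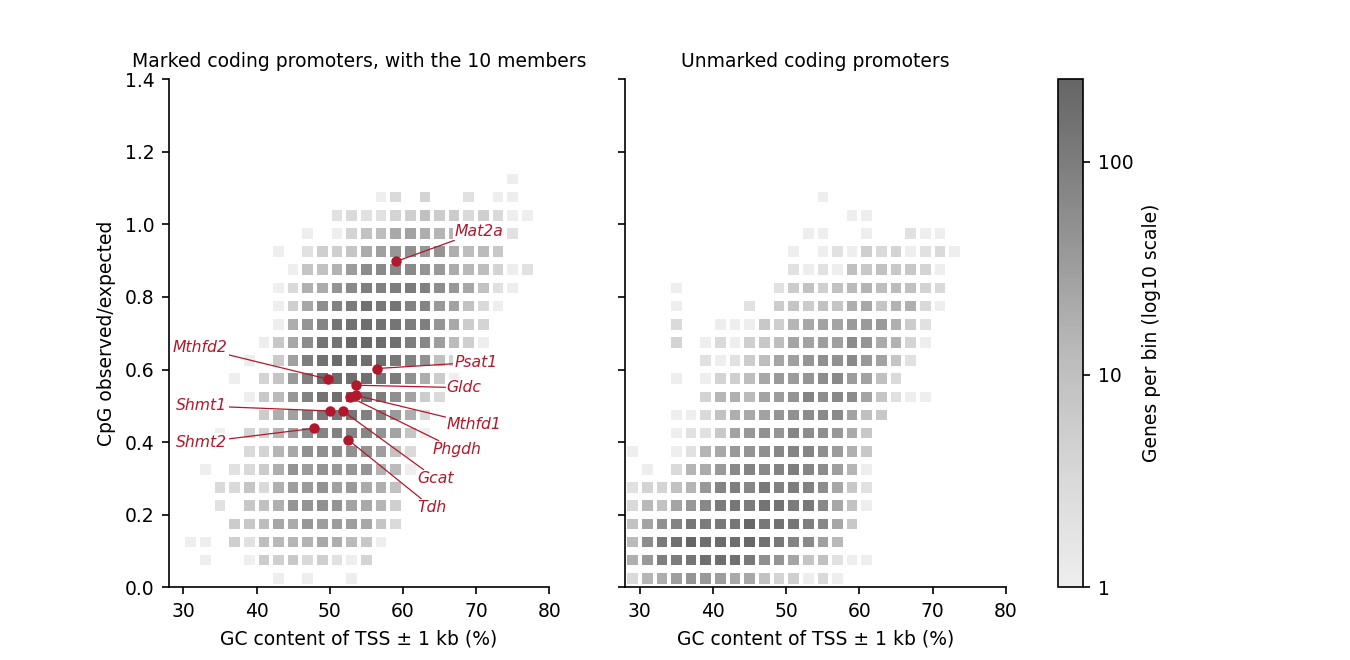
GC content in percent (horizontal axis) and CpG observed/expected ratio (vertical axis) of the 1 kb on each side of the principal TSS. Grey squares are bins of marked (left) and unmarked (right) coding promoters, darker for more genes on a log scale, and red points are the 10 genes. Mat2a lies highest with 0.898 and Tdh lowest with 0.407.

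A search for 9 short motifs was made on both strands, from 250 bases before to 50 after the principal TSS, beside the same window of 21853 coding genes, marked and unmarked together, and of the marked ones among them, with the TSS base counted as +1 and the base before it as −1. CCAAT was found in 8 of 10 genes, all but Gcat and Shmt2, in 38.6% of coding promoters and in 38.5% of the marked ones. Mthfd2 held 3 copies, with first bases at −94, −45 and −20 from the TSS, and Psat1 also held 3, at −36, −6 and +24. In Phgdh a copy began at −172, and its last base is the first of a TATAAA at −168, while a further copy at −2 crosses the TSS. Around the start of the longest isoform instead, CCAAT was found in 7 of 10 genes, 38.7% of coding promoters and 38.5% of the marked ones, since the outer start of Psat1 lacked it.

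GGGCGG, the GC box, was found in 5 of 10 genes (Gcat, Gldc, Shmt1, Mthfd1 and Mat2a), in 45.4% of coding promoters and in 64.7% of the marked ones. TATAAA was found in Phgdh and Mat2a, 2 of 10, in 12.5% of coding promoters and in 6.75% of the marked ones. Its place at −30 in Mat2a is where a TATA box usually lies, and its place at −168 in Phgdh is not. The E-box CACGTG was found in Gcat alone, at +3, in 7.77% of coding promoters and in 10.3% of the marked ones. GCATGCGC, a part of the motif of the factor NRF1, was found in Shmt2 alone, at −17 and, on the other strand, at −19, in a palindrome whose copies overlap, in 3.75% of coding promoters and in 5.37% of the marked ones. The other 4 motifs were found in 0 of 10 genes. TTGCATCA, the amino acid response element, was in 0.947% of coding promoters and 0.477% of the marked ones, and the cAMP response element TGACGTCA in 2.49% and 3.42%. The octamer ATGCAAAT was in 1.62% and 1.31%, and the ETS motif ACTTCCGG in 5.0% and 8.55%. These matches describe letters in a window and are not sites of binding. No match says only that these letters were not there.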

How the data were processed

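H3K27ac ChIP-seq was analyzed as the list of control peaks that the authors deposited, whose values are positions in base pairs, with both replicates pooled. According to the methods, the authors aligned reads to a joint mouse and human reference, dropped duplicates, called peaks with LanceOtron, merged those within 2 kb, and removed peaks of low height or away from ATAC-seq summits. The submitters' processing notes name cutadapt, BWA, Picard 2.9.1, SAMtools 1.4 and DESeq2. Depth per sample and peak height cannot be read from the list.

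Peaks were compared with GENCODE release M21 of GRCm38, not the release named in the paper, by an overlap of at least 1 bp, with Python 3.11.15, numpy 2.4.6, pandas 2.3.3 and scipy 1.17.1, and figures were drawn with matplotlib 3.10.9. The assignment of peaks to promoters, gene bodies and surroundings was tested on simulated peaks. Widths, coverage, distances and sequence measures were not part of that test. Columns of other samples numbered 0. A gene is covered between its outermost annotated bases. Of 2 records named Gcat, ENSMUSG00000006378.15 was used. The 10 genes, the other pathway genes, the motifs and the rules were chosen with earlier results of these data known. The rule named all 10 genes, genes that share their promoter peaks, the 3 widest, the 3 narrowest and all unmarked other pathway genes, and the neighbors of the genes with the most and the fewest peaks beside them. Other genes named, the principal isoform as anchor and RefSeq TSSs as an alternative were chosen after values were seen. Alternatives changed the window, the isoforms, the peaks used, the overlap and the reach.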

Additional observations from a re-analysis of the deposited data

How the results depend on the processing

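The list pools both control replicates and covers 1 condition, so replicates could be neither left out nor compared. No paired analysis was possible because the list has no values per replicate. All 10 genes remained marked with windows of 500 bp or 2 kb, with TSSs of protein_coding transcripts only, with peaks of at least 1 kb only and where the overlap had to reach 500 bp. With the TSS base itself inside a peak 8 were marked (not Gldc and Phgdh), with the longest isoform alone 9 (not Psat1), and with RefSeq TSSs 9 of the 9 matched. Other pathway genes marked ranged from 26, of the 32 matched in RefSeq, to 31.

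The share of marked coding genes was 52.7% with windows of 2 kb, 49.1% with the TSS base, 48.7% with the longest isoform, 50.8% with protein_coding transcripts, 46.6% with peaks of at least 1 kb and 50.5% with an overlap of 500 bp. With the longest isoform, 2 of the 10 genes (Mthfd2 and Psat1) had a gene body peak and 22.2% of coding genes did. With peaks of at least 1 kb these were 0 and 15.5%, and windows of 2 kb gave 16.4% of coding genes. The median number of peaks beside one of the 10 genes was 1.5 within 25 kb, 5 within 100 kb (3 over coding genes), 2.5 within 50 kb of the TSS and 2.5 with peaks of at least 1 kb. The median promoter peak of the 10 genes was 5625.5 bp with the TSS base (2388.5 bp over coding genes), 5106 bp with the longest isoform (2173 bp) and 4230 bp for peaks that reach 1 coding gene only (2039 bp), each time wider in the set. These shifts follow from which start sites and peaks each setting counts.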
